A study of Gossypium bickii with 18 samples.

Results

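The comparison sets cotyledons of the diploid Australian cotton Gossypium bickii at 36 h after imbibition against those at 12 h, both under light. Imbibition is the uptake of water that starts germination. Each group had 3 libraries, and the values were FPKM, the fragments of a gene relative to its length and to the mapped fragments of its library. Of 43790 gene IDs in the time-course table, 22994 (52.5%) stood at 1 FPKM or more in at least 3 of these 6 libraries and form the genes compared. The study holds 18 libraries in 6 groups of 3, and the labels name no genotype or line. The other groups were 0 h, for which the labels give no light condition, 24 h and 48 h under light, and 24 h in the dark. The 0 h and 48 h libraries were used for the spread between libraries and for levels outside the 2 times compared, and the 24 h libraries only from a second table that was made separately. The labels call the replicates biological without saying if separate plants were used, so p-values measure the spread between these samples only.

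Cotyledons of cotton are the storage organs of the seed. After imbibition they first live on stored protein and oil and on transcripts laid down in the dry seed, then mobilise the reserves for the growing seedling, and once lit they build chloroplasts and turn into the first green leaves. The comparison asked what distinguishes cotyledons a day later from those early in germination. There was no dark group at 12 h or 36 h, so time and length of exposure to light cannot be told apart. In whole cotyledons, fewer cells of a type and less RNA per cell cannot be told apart either. Gene IDs come without names in the files, so genes are given by ID only, no pathway list could be read, and the tissue label was not checked against marker genes.

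The filter left out genes that were low in most of the 6 libraries. The third-highest value of a gene decided its place, and the nearest genes on each side had 1.0004 and 0.9998 FPKM. Between 0.9 and 1 FPKM lay 392 genes that were left out, and between 1 and 1.1 FPKM lay 328 that were kept. Of the 22994 genes, 18746 reached 1 FPKM in all 6 libraries. Another 1354 reached it in all 3 libraries at 36 h and in none at 12 h, against 262 for the opposite case, and these genes entered only through the group in which they were high. All 3 libraries at 12 h listed 112 of the genes at 0, and all 3 at 36 h listed 8 of them at 0.

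More genes stood at 1 FPKM or more at 36 h. At 12 h, 21031, 21345 and 20897 genes stood at 1 FPKM or more in replicates 1 to 3, and at 36 h 23256, 23149 and 22826. The groups did not overlap. The 12 h mean of 21091 ± 230 and the 36 h mean of 23077 ± 224 (SD, n = 3) differed by 1986 genes. The most abundant transcripts took less of the total at 36 h: in the 12 h libraries the 100 highest genes held 23.4%, 20.1% and 23.1% of summed FPKM, in the 36 h libraries 14.8%, 14.5% and 16.8%. Both differences gave p = 0.1 in an exact two-sided permutation test (adjusted 0.1 over both), which is the smallest p that 3 against 3 libraries allow. FPKM are relative to the library's total, so these measures are not independent of each other, and the depth of the libraries is unknown.

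The 6 libraries fell into their 2 groups, and 36 h replicate 3 stood apart from the other 36 h libraries. On the first principal component, with 77.7% of the variance, the 12 h libraries lay at -73.8, -81.3 and -80.7 and the 36 h libraries at 82.0, 95.6 and 58.2. The second component, with 11.8%, put 36 h replicate 3 at -64.0 and replicates 1 and 2 at 23.4 and 28.7. Across genes, log2 values correlated at r = 0.975 between 36 h replicates 1 and 2 but at 0.914 at the lowest within the group, against 0.968 to 0.977 within 12 h. Between the times, r ran from 0.752 to 0.836. Replicate 3 had the highest median r of the 36 h libraries with 12 h (0.830, against 0.792 and 0.765 for replicates 1 and 2) and the lowest with 48 h (0.708, against 0.767 and 0.815). That library exceeded both other 36 h libraries by 2 log2 units or more in 172 genes and fell below both by as much in 75, against at most 23 above and 37 below in the other 5 libraries. What set it apart was not tested, and the main results that rest on it are also given without it below.

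**Figure D1:**
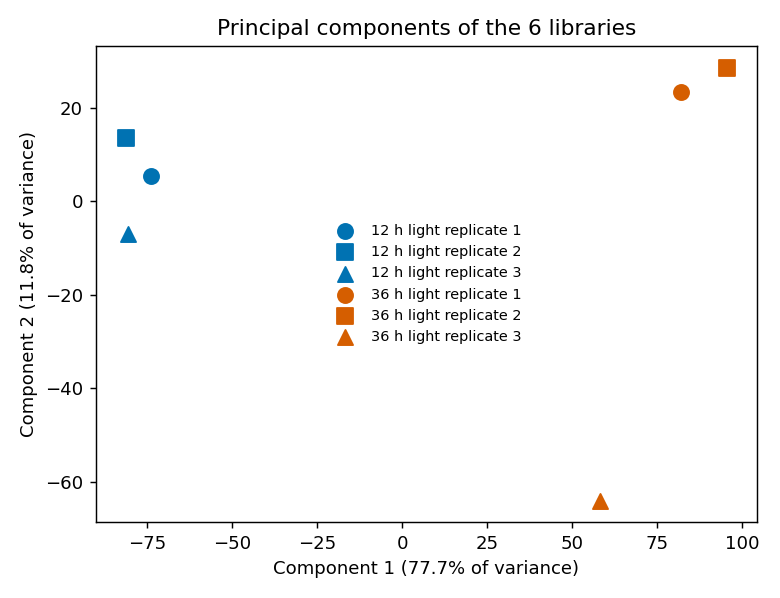
Positions of the 6 libraries on the first and second principal component of log2(FPKM + 1), with the share of variance on each axis. Colours give the time and marker shapes the replicate. Component 1 separates 12 h (-81.3 to -73.8) from 36 h (58.2 to 95.6), and 36 h replicate 3 lies alone at -64.0 on component 2.

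Between 12 h and 36 h, 5145 of the 22994 genes (22.4%) changed, and rises outnumbered falls. Calls needed an adjusted p under 0.05 in limma (Benjamini-Hochberg over all 22994 genes) and a log2 difference, 36 h minus 12 h on the log2(FPKM + 1) scale, of at least 1 in size. Of the calls, 3860 (16.8% of genes tested) were higher at 36 h and 1285 (5.59%) were lower. These include genes that entered only through the group in which they were high: 1072 of the rises and 151 of the falls. The median log2 difference was 1.62 among the genes that rose, -1.37 among those that fell and 0.05 over all genes tested. Without 36 h replicate 3, 4125 genes rose and 1470 fell, and 4819 of the 5145 calls (93.7%) were made again in the same direction. The share of calls that were higher depended on scaling: 75.02% of the FPKM calls, 73.8% once libraries were scaled by medians of ratios, and 60.0% with quantile normalization, which put the median of all genes at -0.16.

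Large changes were mostly rises. At a log2 difference of at least 2, 1213 genes rose and 254 fell. At 3 or more, 368 rose and 46 fell, and at 4 or more, a 16-fold change of FPKM + 1, 138 rose and 8 fell. The libraries of both times did not overlap in 55% of all genes tested, of which 7278 (31.7%) had all 36 h values above all 12 h values and 5369 (23.3%) had all below. Among the calls, 3767 of 3860 rises and 1236 of 1285 falls did not overlap, and 142 calls had overlapping libraries. The calls themselves rest on the same values, so these counts add no support.

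**Figure D2:**
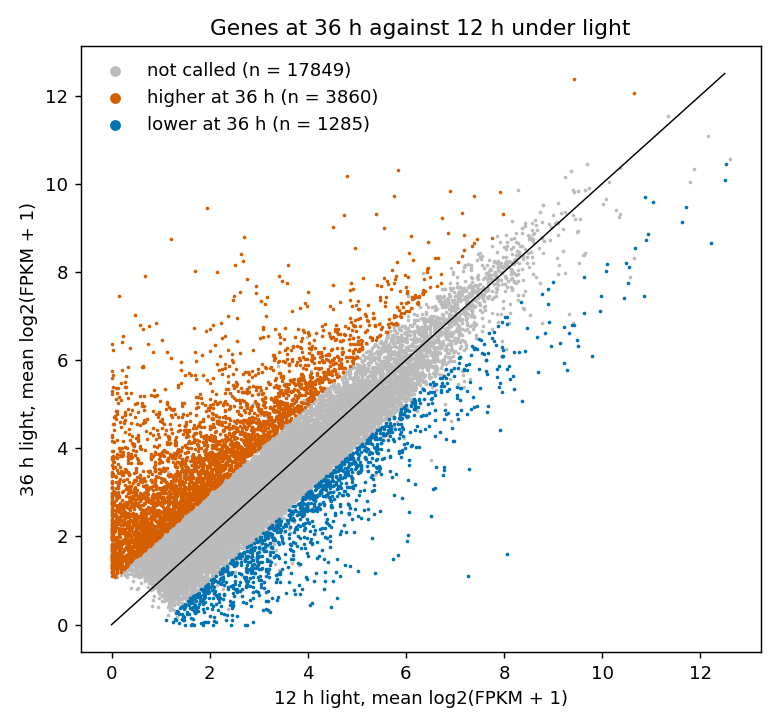
Each point is 1 of 22994 genes, with the mean log2(FPKM + 1) of the 3 libraries at 12 h on the x axis and at 36 h on the y axis; the line marks equal values. The 3860 genes higher at 36 h (orange) reach down to 0 at 12 h. Of the 1285 lower genes (blue), a mean of 11.8% per 12 h library stand at 100 FPKM or more, and 38 are among the 100 highest of 12 h.

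The largest rise belonged to Gbi07G2137, a gene near the floor at 12 h. Its FPKM was 2.35, 1.53 and 0.471 at 12 h and 329, 860 and 279 at 36 h. All 36 h values lay far above all 12 h values, with replicate 2 the highest. The log2 difference was 7.54 (SE 0.38, adjusted p = 3.52e-08 in limma), and it lay between 7.03 and 7.85 when each library was left out in turn. At times outside the comparison, the gene stood at 0.716, 0.396 and 0.643 FPKM at 0 h and at 10424, 8768 and 7514 FPKM at 48 h. In the separate table of 24 h libraries its FPKM was 5.004, 20.4 and 8.93 in the dark and 49.9, 139 and 54.4 under light. The light libraries were all above the dark ones, with a log2 difference of 2.76, light minus dark (SE 0.53, adjusted p = 0.0328 in limma). This call was lost without dark replicate 1 (adjusted p = 0.0803) or light replicate 1 (0.0702), 2 (0.0755) or 3 (0.0882).

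The most abundant gene among those that rose was Gbi03G0170, which also had the highest mean of all genes at 36 h. It had 869, 582 and 637 FPKM at 12 h and 5874, 5709 and 4568 at 36 h, with no overlap. The mean thus went from 696 ± 153 to 5384 ± 711 FPKM (SD, n = 3), or from 0.129% to 1.00% of the summed means, and from rank 56 to rank 1. The log2 difference was 2.96 (SE 0.31, adjusted p = 9.53e-06 in limma). Unlike Gbi07G2137 it was already present at 0 h, at 194, 166 and 300 FPKM, and its 48 h values of 3880, 2687 and 4556 FPKM lay below all 36 h values. At 24 h it stood at 6346, 6220 and 4981 FPKM in the dark and at 4030, 4745 and 4740 under light, a log2 difference that did not pass (-0.37, SE 0.17, adjusted p = 0.191 in limma).

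Gbi12G3305 had the largest fall. Its 12 h libraries held 260, 213 and 337 FPKM, and its 36 h libraries 2.02, 0 and 8.38. It fell by 6.45 on the log2 scale (SE 0.57, adjusted p = 2.63e-06 in limma), with 36 h replicate 3 the highest of its group, and leaving that library out gave -7.26 (adjusted p = 7.4e-08 in limma). The gene was high at 12 h but not at either end of the course: its 0 h values were 0, 0.576 and 0 FPKM, and it was listed at 0 in all 3 libraries at 48 h. It stood at 82.6, 137 and 81.2 FPKM in the dark at 24 h and at 14.6, 66.1 and 56.3 under light. All light values were below all dark values, but the difference did not pass (log2 difference -1.33, SE 0.53, adjusted p = 0.145 in limma).

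The most abundant gene among those that fell was Gbi01G0290, which ranked 2 at 12 h and 15 at 36 h. Its FPKM was 7050, 4191 and 6664 at 12 h and 857, 843 and 1771 at 36 h. The groups did not overlap, and 36 h replicate 3 was again the closest to 12 h. The gene fell by 2.42 (SE 0.71, adjusted p = 0.0153 in limma), and the call was lost without 36 h replicate 1 (adjusted p = 0.0501) or replicate 2 (0.0519). Its 0 h values were 55.2, 549 and 49.0 FPKM, so that 0 h replicate 2 stood about an order of magnitude above the others and this difference enters the shared estimate of the spread. In a fit of the 6 libraries at 12 h and 36 h alone the adjusted p was 0.00194. At 48 h the gene had 385, 389 and 468 FPKM, below every 36 h value. At 24 h it stood at 4783, 4594 and 3786 FPKM in the dark and 3422, 3728 and 3490 under light (log2 difference -0.30, SE 0.16, adjusted p = 0.238 in limma).

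**Figure D3:**
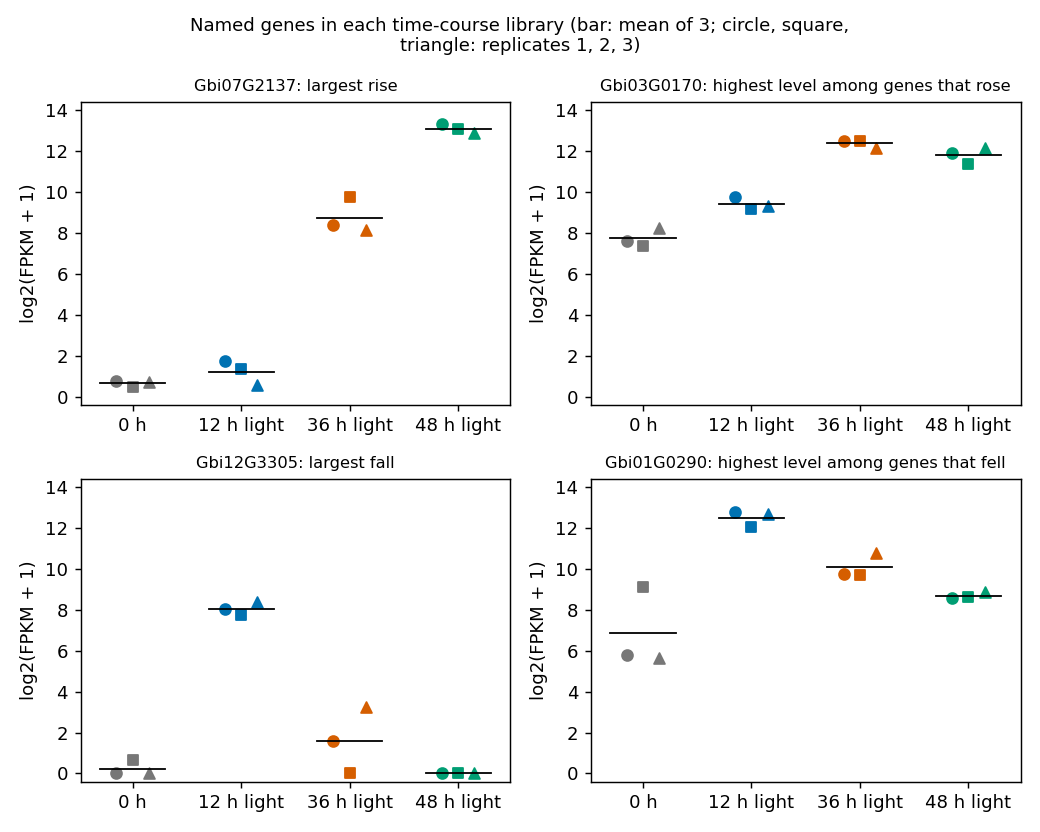
Log2(FPKM + 1) of the 4 named genes in every library of 0 h, 12 h, 36 h and 48 h; bars are means of 3 libraries and marker shapes give the replicate. Gbi07G2137 climbs from under 2 to over 8 between 12 h and 36 h, Gbi12G3305 is high only at 12 h among these times, and Gbi01G0290 shows 0 h replicate 2 and 36 h replicate 3 apart from their groups.

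Genes that rose were mostly low at 12 h and moderate at 36 h. Their median FPKM was 2.19, 2.08 and 1.93 in the 12 h libraries and 10.8, 12.2 and 9.03 in the 36 h libraries. Their share of summed FPKM was 5.04% ± 0.383 at 12 h against 22.2% ± 2.79 at 36 h (SD, n = 3), where the size of the step follows from how they were called. Outside the comparison, the 3860 genes held 3.73% ± 0.170 at 0 h and 43.1% ± 2.78 at 48 h. In single libraries these shares were 3.55%, 3.75% and 3.89% at 0 h and 45.6%, 43.4% and 40.1% at 48 h. No small group of genes made up the 48 h share, since the 10 highest held 8.06% of the total and the other genes 34.9%. At 0 h, 2136 of the 3860 genes (55.3%) were under 1 FPKM in all 3 libraries, against 24.4% of all genes tested. At 48 h, 2279 (59.0%) reached 10 FPKM in all 3 libraries, against 38.7% of all genes tested. All genes tested are not matched to the genes that rose for level at 12 h or 36 h.

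Genes that fell had their highest median at 12 h among the 4 times of this table that were used. A median higher at 12 h than at 36 h follows from how they were called, and picking on 12 h values favours a peak there. Their median FPKM was 17.0, 17.2 and 17.3 in the 12 h libraries and 4.87, 4.56 and 6.19 in the 36 h libraries. At 0 h it was 4.94, 6.98 and 5.19, close to the 36 h values, and at 48 h 3.17, 3.54 and 3.74. Their share of summed FPKM was 18.8% ± 0.773 at 12 h against 4.94% ± 1.45 at 36 h (SD, n = 3), a step that also follows from the calls. At 0 h, the same 1285 genes held 37.8%, 34.7% and 34.7% of summed FPKM, although they are 5.59% of the genes tested, and at 48 h 2.85%, 3.11% and 3.00%. The high 0 h share beside a low 0 h median came with a concentration in few genes: the 10 highest of these genes held 17.7% of the total and the remaining genes 18.1%. At 0 h, 463 of the 1285 genes (36.0%) were at 10 FPKM or more in all 3 libraries, against 28.3% of all genes tested, while 244 (19.0%) were under 1 FPKM in all 3, against 24.4%. At 48 h, 328 (25.5%) were under 1 FPKM in all 3 libraries, against 5.58% of all genes tested. With calls made without 36 h replicate 3, the genes that fell held 35.8% ± 1.78 at 0 h and 3.29% ± 0.167 at 48 h (SD, n = 3), and those that rose 4.33% ± 0.256 and 44.6% ± 2.76.

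**Figure D4:**
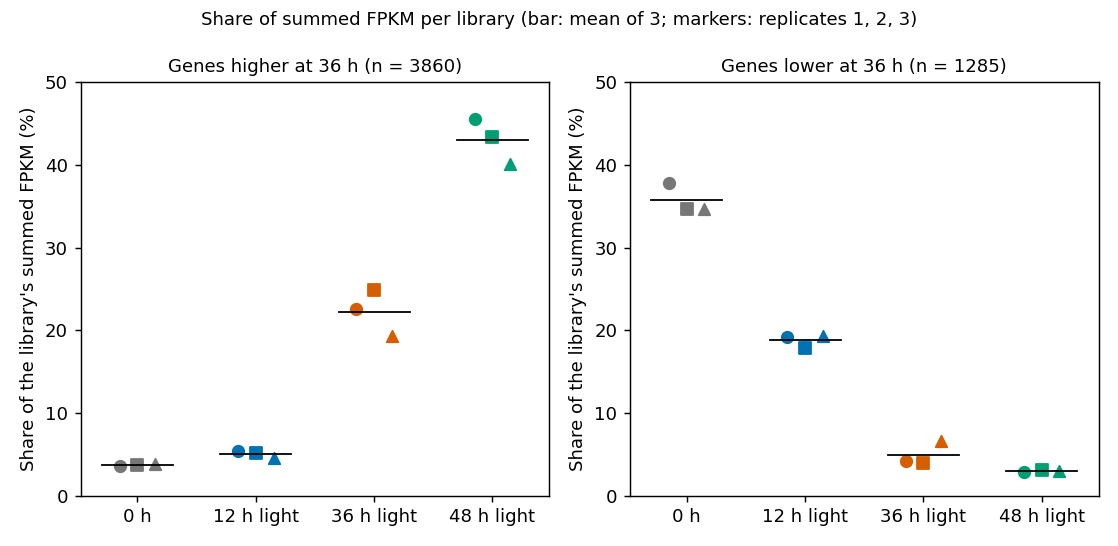
Share of each library's summed FPKM held by the 3860 genes higher at 36 h (left) and the 1285 genes lower at 36 h (right); markers are libraries and bars means of 3. The genes called higher stand at 3.55% to 3.89% at 0 h and at 40.1% to 45.6% at 48 h, and those called lower at 34.7% to 37.8% and at 2.85% to 3.11%.

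The most abundant genes of each time were compared next. Of the 100 genes with the highest mean at 12 h, 54 were also among the 100 highest at 36 h. Among the 100 of 12 h, 38 fell, 2 rose and 60 were not called, where 5.59% of all genes tested fell and 16.8% rose. Of the 100 highest at 36 h, 23 rose, 9 fell and 68 were not called, closer to those shares. Each set was picked for its level at a time of the comparison, so these counts are a description. The joint share of the 100 of 12 h went from 22.2% to 11.9% of the summed means, while that of the 100 of 36 h was 16.6% at 12 h and 15.03% at 36 h. Without 36 h replicate 3, the sets shared 49 genes, 41 of the 100 of 12 h fell and 28 of the 100 of 36 h rose. The 38 abundant genes that fell held 11.1%, 9.50% and 10.8% of summed FPKM at 12 h and 1.75%, 1.68% and 3.31% at 36 h. Their median FPKM was 12.2, 55.7 and 12.2 in the 0 h libraries and 75.9, 91.0 and 91.1 at 48 h. These genes thus had a lower median at 0 h and 48 h than at 12 h (941 ± 42.3, SD, n = 3), the time at which they were picked. Among the 0 h libraries, replicate 2 had the highest median. Their share of summed FPKM at 0 h was 5.41%, 7.27% and 4.90%, above that at 36 h, and at 48 h 1.08%, 1.22% and 1.16%. The highest single values at 0 h were 28721, 36662.5 and 25005 FPKM. The 0 h medians lay below the 36 h medians of 140, 137 and 286 FPKM, so the higher 0 h share does not describe most of the 38 genes. The 23 abundant genes that rose held 0.942%, 0.773% and 0.721% at 12 h, 4.54%, 5.02% and 3.87% at 36 h and 5.68%, 5.45% and 5.97% at 48 h.

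The 138 genes with the largest rises had low medians at 0 h and 12 h. Their median FPKM was 0 in each 0 h library, 0.685, 0.497 and 0.473 in the 12 h libraries and 58.5, 66.9 and 33.0 in the 36 h libraries. It then stood at 127, 115 and 127 in the 48 h libraries. Single members stood higher, up to 308 FPKM at 0 h (replicate 2) and 74.8 FPKM at 12 h (replicate 1). The low 12 h median and the step to 36 h, in median and in share, follow from how these genes were picked. At 0 h, 114 of the 138 (82.6%) were under 1 FPKM in all 3 libraries, against 55.3% of all rises and 24.4% of all genes tested. At 48 h, 127 (92.0%) were at 10 FPKM or more in all 3, against 59.0% and 38.7%. A rise of this size needs a low 12 h level and a high 36 h level, where the lowest mean was 16.7 FPKM. The sets beside them are not matched for level at 12 h or 36 h, so these contrasts are a description. Their joint share of summed FPKM went from 0.0679% ± 0.0142 at 12 h to 3.04% ± 0.768 at 36 h, and it stood at 9.76% ± 1.19 in the 48 h libraries (SD, n = 3). Only 8 genes fell by as much, too few for such a summary. Without 36 h replicate 3, 176 genes rose and 15 fell by that size.

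Each 36 h library was then read for calls made without it. With 36 h replicate 1 left out, 3771 genes were called higher, and their median log2 difference from the 12 h mean was 1.63 in replicate 1 and 1.62 in the mean of the other two. For replicate 2, the values were 1.84 in the library left out and 1.60 in the others. Replicate 3 showed the same genes moving less far: 4125 genes called higher from replicates 1 and 2 had a median of 1.33 in replicate 3 against 1.65, and 1470 genes called lower had -1.03 against -1.46. Of these, 97.6% and 92.8% still lay on the called side of the 12 h mean in replicate 3, against 99.1% to 99.8% for replicates 1 and 2. In 80.4% of the genes called higher and 81.0% of those called lower, the value in replicate 3 was nearer to 12 h than the mean of the other two. For replicate 1 these shares were 53.2% and 52.0%, and for replicate 2 28.6% and 43.9%. A library that did not take part in the calls tends to show smaller differences, and among the 12 h libraries left out in the same way the highest share was 64.7%, for replicate 1. The same 12 h libraries enter both values.

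**Figure D5:**
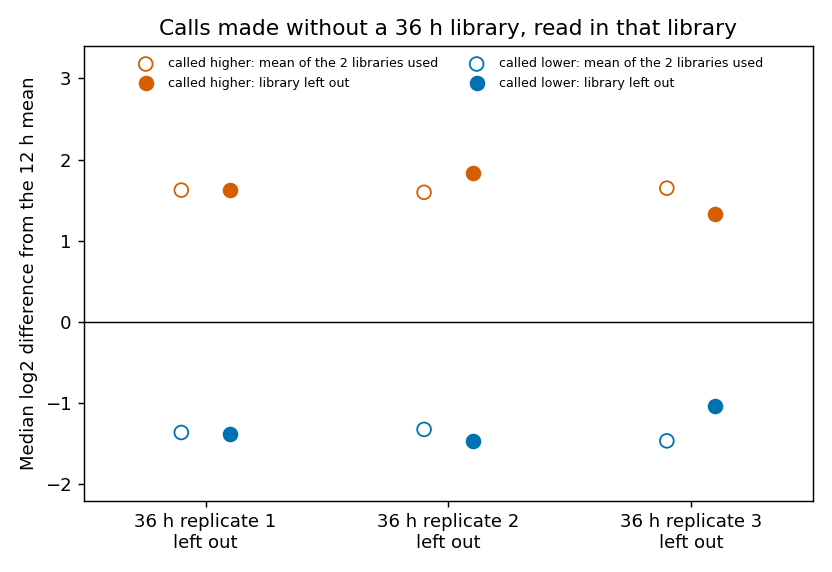
Median log2 difference from the 12 h mean over genes called without a given 36 h library (x axis), in that library (filled) and in the mean of the other two (open), for calls higher (orange) and lower (blue). Replicates 1 and 2 meet or exceed the libraries that made the calls, and replicate 3 falls short in both directions (1.33 against 1.65, and -1.03 against -1.46).

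The change from 0 h to 48 h was read for the same genes. Its groups share no library with 12 h and 36 h, but both comparisons used the same 12 libraries to estimate the spread. With separate fits of 6 libraries, 3669 genes were called in the same direction in both, against 3675 in the main fits. The change from 0 h to 48 h called 15359 of 23849 genes (64.4%), 11177 higher at 48 h (46.9%) and 4182 lower (17.5%). Of 3632 genes that rose from 12 h to 36 h and were tested in both, 3229 (88.9%) were higher at 48 h than at 0 h, 69 (1.90%) were lower and 334 were not called. Among all 21460 genes tested in both, 44.9% were higher and 17.2% lower. Of the 3860 genes that rose, 55.3% were under 1 FPKM in all 3 libraries at 0 h, against 24.4% of all 22994. Such genes were tested only if all 3 libraries at 48 h reached 1 FPKM, so they could not be called lower. The 88.9% against 44.9% was thus in part set by the filter. The 3229 genes were 33.5% of the 9634 genes that were higher at 48 h and tested in both. Their list's median log2 difference, 48 h minus 0 h, was 3.02 over the 3632 genes, against 0.75 over all 21460.

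Genes that fell from 12 h to 36 h were divided in that comparison. Of the 1285 genes, 1090 were tested in both, against 3632 of the 3860 that rose. The rest did not reach 1 FPKM in at least 3 of the 0 h and 48 h libraries. Of the 1090, 446 (40.9%) were lower at 48 h than at 0 h, 300 (27.5%) were higher and 344 were not called. Genes under 1 FPKM in all 3 libraries at 48 h (25.5% of the 1285) could, where tested, not be called higher. The 446 genes were 12.1% of the 3683 genes that were lower at 48 h and tested in both, and the list's median log2 difference was -0.39. Leaving out 0 h replicate 2 gave 39.0% lower and 33.1% higher, and leaving out 36 h replicate 3 gave 40.3% and 28.5%. After quantile normalization, 52.0% were lower and 13.9% higher, against 28.3% and 29.6% of all genes tested in both, while 83.8% of the genes that rose were higher. Of the named genes, Gbi07G2137 was higher at 48 h than at 0 h by a log2 difference of 12.45 (adjusted p = 2.36e-11 in limma) and Gbi03G0170 by 4.08 (adjusted p = 1.04e-07). Gbi01G0290, which fell between 12 h and 36 h, was higher at 48 h than at 0 h by 1.84 (adjusted p = 0.0295), and the difference was 2.96 (adjusted p = 1.28e-05) without 0 h replicate 2. That call was lost without any of the other 5 libraries (adjusted p between 0.0566 and 0.147). Gbi12G3305 was too low at both ends to be tested.

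The light response at 24 h also shares no library with the comparison and was measured in the separate table. There 727 of 23059 genes (3.15%) were called between light and dark, 587 higher under light (2.55%) and 140 lower (0.607%). Of 3397 genes that rose from 12 h to 36 h and were tested in both, 264 (7.77%) were higher under light at 24 h and 33 (0.971%) lower, against 2.76% and 0.594% of all 20522 genes tested in both. These 264 genes were 46.6% of the 566 genes that were higher under light and tested in both. Of 1047 genes that fell, 41 (3.92%) were higher under light and 8 (0.764%) lower. The median log2 difference, light minus dark, was 0.25 for the genes that rose, 0.17 for those that fell and 0.14 over all genes tested in both. The light calls depended on single libraries: leaving out each 24 h library in turn put the share of rising genes that were higher under light between 3.56% and 12.1%, and that of all genes between 1.01% and 8.001%. Without dark replicate 3, where both were highest, 10.6% of the genes that fell were higher under light as well. In summed FPKM the 3860 genes that rose held 11.001%, 12.1% and 11.9% in the dark libraries and 14.2%, 12.9% and 13.04% in the light libraries, with no overlap. The 1285 genes that fell held 7.89%, 7.86% and 7.78% in the dark and 7.24%, 8.50% and 7.70% under light, where the groups overlapped.

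The calls were spread over all series of gene IDs. IDs carry a prefix from Gbi01G to Gbi13G, or a scaffold name. Among the 13 numbered series, the share of tested genes that rose lay between 15.5% (series 03) and 19.0% (series 07), and the share that fell between 4.70% (series 08) and 6.07% (series 12). Of 428 genes with scaffold names, 17.3% rose and 8.64% fell. Neighbours in ID number were counted where both were tested. Of 3117 rising genes with a tested neighbour in ID number, 923 (29.6%) had one that rose, against 22.0% of all 19084 genes with a tested neighbour. Of 1049 falling genes, 194 (18.5%) had a neighbour that fell, against 7.85% of all. The longest runs of consecutive IDs held 5 genes for rises, reached 4 times, and 3 genes for falls, reached 10 times. Neighbouring IDs may be similar copies whose fragments were divided or shared in counting, which was not tested, and whether ID numbers follow the order along the genome is not stated in the files.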

How the data were processed

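Libraries were prepared from total RNA with the NEBNext Ultra kit for paired-end Illumina sequencing, per the labels' protocols. The submitters' processing notes list Trimmomatic 0.36, HISAT2 2.0.4 and HTSeq 0.6.0. The sources used here give no genome build, annotation or strand setting. The authors deposited FPKM in 2 tables, whose values were compared only within a table. Columns were matched to samples by name. 3 columns of the time-course table, at 24 h, name no light condition and were left out. FPKM carry no depth, so depth is unknown and counting intervals cannot be given.

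Tests used limma 3.58.1 in R 4.3.3 on log2(FPKM + 1), two-sided, with group means of 0 h, 12 h, 36 h and 48 h (12 libraries), variances moderated along a mean-variance trend, and adjustment after Benjamini and Hochberg. Genes needed 1 FPKM or more in at least 3 of the 6 libraries compared. The pseudocount of 1 understates changes of low genes. The 24 h light and dark libraries were fitted alone in the same way. In each direction 2 genes were named, both with libraries that did not overlap: the called gene with the largest change among means of at least 10 FPKM, and the one with the highest mean. The members, settings and rules were chosen with earlier results of these data known. Of 9 gene lists of symbols 0 members matched an ID, so none was used. Steps were tested on simulated data with changes planted only in genes well above the floor at 12 h, so recovery of genes near the floor was not tested. Alternatives covered pseudocount, filter, scaling, fold minimum, spread estimate, replicate block and each library left out.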

Additional observations from a re-analysis of the deposited data

How the results depend on the processing

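The count of 5145 changed genes was 3421 with a filter at 5 FPKM, where fewer genes were tested, 10052 with no fold minimum (61.9% higher) and 1467 at a log2 difference of at least 2. Under the other settings it stayed between 4941 and 5874. Leaving out each library gave 4795 to 5595 genes, of which 73.7% to 76.1% were higher. Quantile normalization lowered the share that was higher to 60.0%, and the cause was not tested. Gbi01G0290 kept its direction but lost its call without 36 h replicate 1 (-2.25) or replicate 2 (-2.24), and the other named genes kept theirs under every setting run. The difference in genes detected was 1901 at 0.1 FPKM, 1363 at 5 FPKM and 1889 to 2113 with each library left out. The share in the highest genes differed by -3.59 percentage points for 10 genes, -5.26 for 1000 and -7.87 to -6.22 with each library left out. Genes called in the same direction in the change from 0 h to 48 h numbered 3675, and 3281 to 3949 under all settings. Those called in the same direction under light at 24 h numbered 272, but 176 after quantile normalization, 145 with no filter and 121 to 428 with each library left out: 157 without dark replicate 1, 121 without dark replicate 2, 428 without dark replicate 3, and 132, 163 and 128 without the light libraries in turn. Those called in the opposite direction numbered 74, and 78, 20 and 12 to 188 under these settings. The cause was not tested.

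The labels do not say if replicate numbers pair the libraries, and the values do not settle it. Deviations of same-numbered libraries at 12 h and 36 h correlated at 0.219, 0.0766 and 0.196, and those of other pairs between -0.286 and 0.0937. The same number gave the highest value for 12 h replicates 1 and 3, but 12 h replicate 2 correlated best with 36 h replicate 1 (0.0937). With the replicate block 5138 genes were called. The planned fit with the 24 h columns of the time course and the filter over all its columns were not run, since those columns name no light condition. A filter over the 12 libraries used, chosen after seeing the data as were the fits that leave out a library in both overlaps, gave 5344. Unknown depth limits what can be said of low genes.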
